A study of Drosophila melanogaster with 2 samples.

Results

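Of the 30000 candidate regions called from 2 pooled Ash1-GFP ChIP-seq replicates of Drosophila embryos, 3600 (12%) had their summit in an annotated coding exon and over 500 bp from every annotated transcription start site (TSS). These coding-exon candidates were chosen by position alone, with no measured value. They were weak as a group: 12 of the 3600 passed the authors' irreproducible discovery rate (IDR) threshold, and their median rank by the deposited signal value was 20388.5, where rank 1 is the strongest. The 12 lay in otp, hth, InR, Pde1c, l(3)mbn, CG10357, abd-A, RhoGAP71E, scrib, CG4822, tsh and corto. The candidates lay in 2652 host genes and were more GC-rich than the coding sequence they came from. Per Mb of coding sequence over 500 bp from every TSS, they were denser toward the 5' end, as counted across genes of differing length. They were found about as often as other regions in the list of replicate 4 and less often in that of replicate 2. All coordinates are in dm6.

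Both samples were immunoprecipitates from whole embryos, 0 to 24 h old and of mixed sex, of 1 transgenic line that stably expresses Ash1 with GFP at its C terminus. They were biological replicates 2 and 4 of the only group, from separate biosamples. From the labels it is not known whether the fusion replaced the native gene or was added to it. No strain without the tag was analysed here. Free text in both labels calls the samples input controls, while the antibody field gives ash1 and the files hold peak calls, so they were treated as ChIP samples. Each replicate has its own list of 30000 candidates. The same control alignment was used in calling every list, so the replicates' regions are not fully independent. The regions in the IDR list are called peaks here. They are the strongest of the pooled candidates, from a signal of 92.5 upward on a scale that the sources do not state. Signal values were therefore ranked within a list and never compared between lists. No list holds read counts, so depth is unknown, and the intervals given here cover counting of regions only. Whole embryos hold many cell types, so strong binding in a few cells and weak binding in many cannot be told apart.

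Ash1 belongs to the trithorax group, whose proteins keep developmental genes active. It is a histone methyltransferase that adds methyl groups to lysine 36 of histone H3 and opposes Polycomb repression, which is known best from the Hox genes. Trithorax group proteins are known mainly at promoters and at Polycomb/trithorax response elements, while methylated lysine 36 lies over gene bodies. A coding exon is a place where a chromatin signal can fall on sequence that is also constrained to encode protein.

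Sequence around the summit is shown for 5 of the peaks. hth and InR were among the strongest, l(3)mbn was the narrowest, abd-A is a Hox gene, and corto had the highest GC content of the 12. Each window holds 100 bases on each side of the summit and is read 5' to 3' on the strand of the host gene, from RefSeq's copy of the dm6 assembly. Capitals mark matches, on either strand, to GAGAG (the core bound by the GAGA factor), GCCAT (the core of the Pleiohomeotic site), GTGTG, CAGCAGCAG or CGATA. TATCGATA, which contains CGATA, and CACACACA, which contains GTGTG on its other strand, were searched as well.
hth, chr3R:10605120-10605320, minus strand: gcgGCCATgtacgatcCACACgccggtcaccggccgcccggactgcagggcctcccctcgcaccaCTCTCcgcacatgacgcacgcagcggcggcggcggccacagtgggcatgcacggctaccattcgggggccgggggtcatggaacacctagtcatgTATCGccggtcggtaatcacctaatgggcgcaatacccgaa
InR, chr3R:21580185-21580385, minus strand: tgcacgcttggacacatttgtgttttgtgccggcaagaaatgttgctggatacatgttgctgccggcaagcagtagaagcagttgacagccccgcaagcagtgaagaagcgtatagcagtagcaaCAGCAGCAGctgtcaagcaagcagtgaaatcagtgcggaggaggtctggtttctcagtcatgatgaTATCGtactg
l(3)mbn, chr3L:6124724-6124924, minus strand: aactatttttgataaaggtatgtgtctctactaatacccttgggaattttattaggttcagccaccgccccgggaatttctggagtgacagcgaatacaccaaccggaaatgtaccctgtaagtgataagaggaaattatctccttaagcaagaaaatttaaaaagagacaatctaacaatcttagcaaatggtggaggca
abd-A, chr3R:16826106-16826306, minus strand: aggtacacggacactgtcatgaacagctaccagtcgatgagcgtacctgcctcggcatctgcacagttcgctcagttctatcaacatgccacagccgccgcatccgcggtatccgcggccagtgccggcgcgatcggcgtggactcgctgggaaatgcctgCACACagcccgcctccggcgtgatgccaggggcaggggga
corto, chr3R:5085382-5085582, minus strand: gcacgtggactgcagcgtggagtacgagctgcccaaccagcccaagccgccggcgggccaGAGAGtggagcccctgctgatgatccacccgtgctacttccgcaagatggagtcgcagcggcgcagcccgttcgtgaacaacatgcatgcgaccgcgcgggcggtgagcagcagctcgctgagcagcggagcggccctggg

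The hth window held 4 of the motifs, the InR window 2, the abd-A and corto windows 1 each, and the l(3)mbn window none. In the l(3)mbn window 78 of the bases were coding, and the rest was intron. In the other 4 windows every base was coding.

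These short motifs occur widely in coding sequence, so their shares were read beside those of windows of equal length taken every 100 bp along the eligible coding sequence. GAGAG was in 23.2% of the 3600 coding-exon candidates and in 23.1% of the coding windows, while 28.9% of intron candidates and 37.5% of all peaks held it. GCCAT was in 46.2% of the candidates and 42.2% of the coding windows. GTGTG was in 30.3% and 26.4%, against 49.8% of all peaks. CAGCAGCAG, which on the coding strand encodes a run of glutamine, alanine or serine depending on the frame, was in 7.5% of the candidates, 5.08% of the coding windows and 2.01% of intron candidates. Its share was 14.9% in the 87 coding-exon candidates among the 5000 strongest of the pooled list (13 of 87), and 10.5% in those present in both replicates' lists. In the whole pooled list it was 2.72%, and in all peaks 1.53%. The same 87 held GAGAG in 26.4%, GCCAT in 44.8%, GTGTG in 34.5% and CGATA in 21.8%, and TATCGATA and CACACACA in none. CGATA was in 21.9% of the candidates and 22.8% of the coding windows. TATCGATA was in 4 candidates (0.111%) and 0.178% of the coding windows, and CACACACA in 24 (0.667%) and 0.603%, against 7.70% of all pooled candidates. These matches describe the windows and are not shown to be binding sites. For all 7 motifs the share in the candidates lay nearer to that of coding sequence than to that of all peaks. No difference between classes of region was tested, here or below, because regions share libraries and a control and are not replicates.

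The 12 peaks made up 0.333% of the coding-exon candidates (Clopper-Pearson 95% interval 0.172 to 0.582%). Over all pooled candidates the share was 5.22%. It was 3.03% over all candidates more than 500 bp from a TSS, 3.78% in introns and 2.97% between genes. Per Mb of eligible territory there were 0.645 peaks in coding exons and 8.56 in introns. When each replicate's own list was searched, 14 coding-exon candidates of replicate 2 and 16 of replicate 4 were among as many of its strongest candidates as there are peaks, and 6 of these matched between replicates within 100 bp. So each single replicate gave as few strong coding-exon regions as the pooled list did. Of the 3600 pooled members, 6 (0.167%) were that strong in both replicates, against 2.44% of all pooled candidates. In replicate 2's own list 0.611% of coding-exon candidates were that strong, and 0.262% were so in both replicates. In replicate 4's own list these shares were 0.334 and 0.125%. Over each whole list they were 5.22 and 2.37%. The 0.167% therefore reflects how few members were strong, and does not show that strong ones recurred less often.

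The strongest coding-exon peaks lay in genes for a transcription factor of the nervous system, a Hox cofactor and a receptor. otp encodes a homeodomain factor of the nervous system. Its peak held rank 37 in the pooled list, 133 in replicate 2 and 24 in replicate 4, with a signal of 369 in the pooled list. It was 193 bp wide, at 20884485 to 20884677 on 2R, in the last of 7 coding exons, 92.9% of the way along the coding sequence. hth encodes the homeodomain partner of Extradenticle and of Hox proteins. Its peak held ranks 70, 153 and 56 in the same order of lists, at 10605114 to 10605351 on 3R, in coding exon 2 of 14. InR encodes the insulin receptor, a tyrosine kinase. The InR peak held ranks 217, 566 and 215, at 21580246 to 21580356 on 3R, in the first coding exon, which is exon 4 of 13. These 3 peaks were 4653, 9056 and 9906 bp from the nearest TSS, the farthest of the 12. All 3 ranked higher in replicate 4 than in replicate 2, an order for which no share over all peaks is given here.

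Pde1c encodes a phosphodiesterase that cleaves cyclic nucleotides under control of calcium and calmodulin. Its peak held ranks 262, 1387 and 136 in the pooled, replicate 2 and replicate 4 lists, at 11816488 to 11816656 on 2L. The summit was at 99.5% of the coding sequence, in the last coding exon and 17 bp from the end of its coding part. l(3)mbn was named for a blood tumour seen in its mutants. The peak there held ranks 364, 887 and 244, at 6124790 to 6124888 on 3L. At 99 bp it was the narrowest coding-exon candidate, and it covered the whole of a 63 bp exon, exon 5 of 6. The nearest TSS was that of an antisense RNA, asRNA:CR46005, 574 bp away. CG10357 had a peak at ranks 678, 2239 and 439, at 3616374 to 3616709 on 3L, with its summit in the last exon, 4 bp from the end of the coding sequence. The Pde1c and CG10357 summits were close to the end of the coding sequence and that of l(3)mbn to an exon edge. All 3 ranked higher in replicate 4.

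abd-A, the Hox gene of the middle abdomen, had a peak at ranks 1021, 1344 and 1141, at 16826038 to 16826373 on 3R. It lay in coding exon 2 of 5, 1899 bp from the gene's nearest TSS. The ratio of its highest to its lowest rank was the smallest among the 12. RhoGAP71E had a peak at ranks 1076, 934 and 3118, at 15589508 to 15589843 on 3L, in its first exon. It was the only one of the 12 that ranked higher in replicate 2 than in both other lists. scrib encodes a scaffold protein of epithelial cell polarity. Its peak held ranks 1300, 2387 and 962, at 26566869 to 26567204 on 3R, in coding exon 6 of 25.

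CG4822 had a peak at ranks 1470, 6341 and 1176, at 117782 to 118117 on 2L. It was the only one of the 12 whose summit also lay in an annotated UTR of another transcript. It was also the only one at which a coding transcript spanning the summit has no coding sequence. tsh encodes a zinc finger protein of trunk identity. The tsh peak held ranks 1506, 3869 and 1554, at 21829638 to 21829973 on 2L, with the summit on the first base of the coding sequence. corto encodes a chromodomain protein that binds Polycomb and trithorax group proteins. The corto peak held ranks 1510, 2541 and 862, at 5085401 to 5085528 on 3R, in an annotated transcript of a single exon. The peaks of CG4822, tsh and corto lay close to the IDR threshold, and each ranked lower in replicate 2 than in replicate 4.

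**Figure D1:**
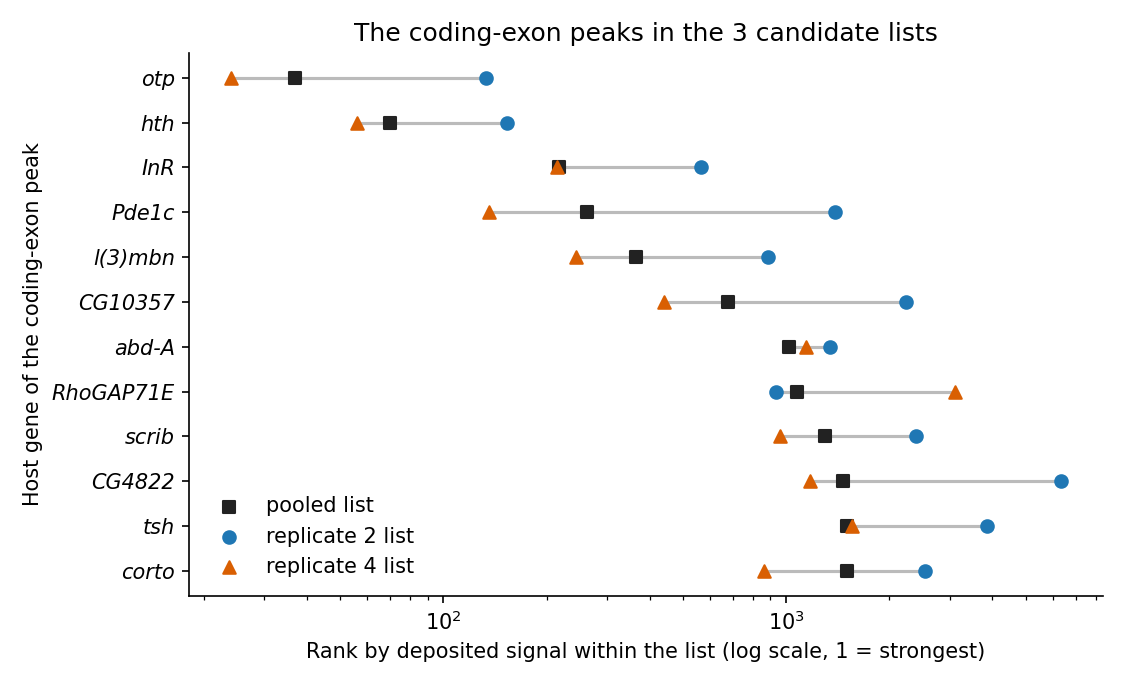
Ranks by the deposited signal value, on a log axis, of the 12 coding-exon peaks in the pooled list (squares), replicate 2 (circles) and replicate 4 (triangles). The grey line joins the 3 ranks of a peak. 11 of the 12 ranked higher in replicate 4 than in replicate 2, RhoGAP71E being the exception, and CG4822 had the lowest rank, 6341 in replicate 2. The share of all peaks with this order is not given here, so the order is not known to be particular to coding exons.

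The 12 differed in what lay around them. The peaks of abd-A, RhoGAP71E, tsh and corto had 1, 2, 2 and 4 other peaks within 3000 bp, and these genes, like hth, InR and scrib, had a peak at a TSS of their own. The other 8 had no other peak within that distance, and around Pde1c there was no other candidate at all. hth had 152 candidates and 9 peaks along its 132008 bp, of which 4 candidates were coding. CG10357 had 1 candidate in all. Among the 3600 members, 6 were narrower than the most frequent width of 336 bp, and all 6 were peaks (otp, hth, InR, Pde1c, l(3)mbn and corto). This was a trait of the whole list, since 323 of all pooled candidates were narrower and 312 of these were peaks. GC content of the 12 windows ran from 38.8% in l(3)mbn and tsh to 68.7% in corto.

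Just below the threshold were CG4230 at rank 1647, Socs36E at 1650, CG4004 at 1677, klar at 1729 and Ppa at 1763. Socs36E encodes an inhibitor of JAK/STAT signalling, and klar a protein that helps to position nuclei. CG4230 and Socs36E were present in both replicates' lists, CG4004 and Ppa only in that of replicate 2, and klar only in that of replicate 4. For CG4004 this rests on the 100 bp limit, since replicate 4's own list held a coding-exon candidate of that gene at rank 1643 just beyond it. The next in order were bin3, CG2865, siz, bif and noc, at ranks 1833, 1996, 1999, 2005 and 2070, all in both lists. bin3 ranked 750 in replicate 2 and 1835 in replicate 4, and bif, which encodes an actin-binding protein of the eye and nervous system, 789 and 5906. Both were stronger in replicate 2. Strong own-list candidates that did not become peaks also included scyl, a homologue of REDD1 that restrains growth, at rank 491 in replicate 2.

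The share of coding-exon candidates grew steadily down every list. Among the peaks of the pooled list it was 0.766%, among the remaining ones of the 5000 strongest 2.18%, and among the 5000 weakest 19.2%. In replicate 2 these shares were 0.893, 1.89 and 13.4%, and in replicate 4 they were 1.02, 4.28 and 23.2%. The order was thus the same in both replicates, at different heights. The share of intron candidates did not keep rising, with 28.8% among the peaks, 38.4% in the second of these bins and 39.2% in the weakest.

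**Figure D2:**
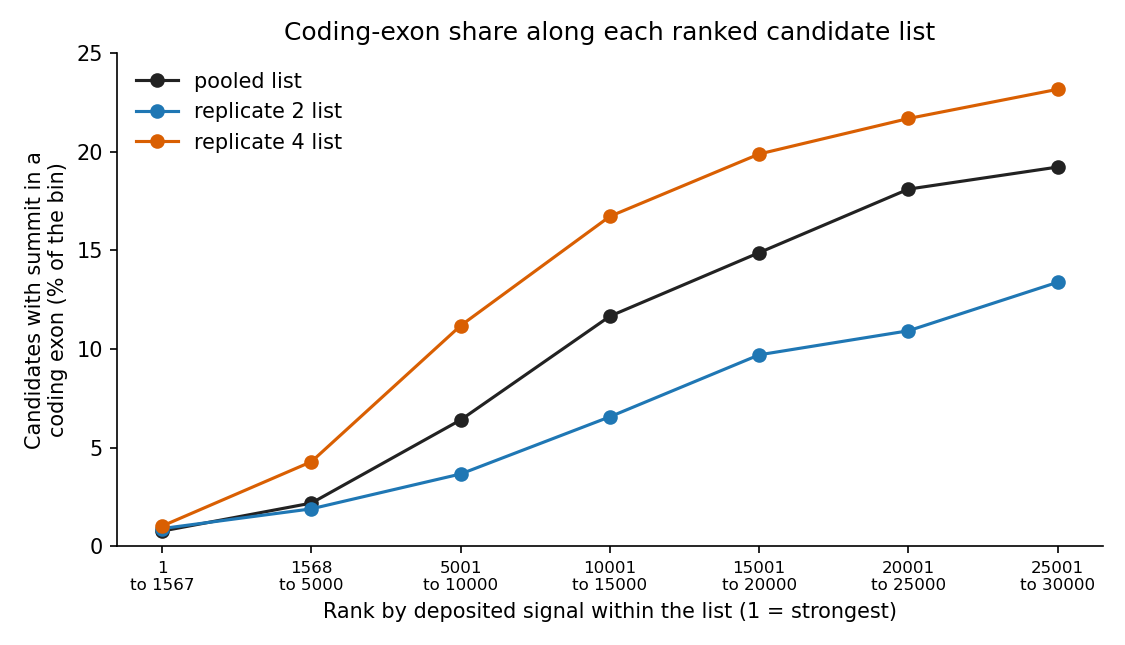
Percentage of candidates whose summit lay in a coding exon and over 500 bp from a TSS, by bin of rank within the pooled list (black), replicate 2 (blue) and replicate 4 (orange). The first bin holds as many regions as there are peaks. All 3 lines rose from about 1% to 19.2, 13.4 and 23.2% in the weakest bin, and replicate 4 lay above replicate 2 throughout.

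The ranks of the 3600 members ran from 37 to 29997, with quartiles of 14263, 20388.5 and 25283. Median ranks of intron and intergenic candidates were 14951 and 16859. A deposited q-value below 0.05 was reached by 319 members (8.86%), against 29.4% of all pooled candidates and 28.5% of intron candidates. Median signals were 27.5 in coding exons and 32.6 in introns of the same list. In each replicate's own list the median rank of coding-exon candidates was 20747.5 for replicate 2 and 19263.5 for replicate 4. The weak ranks were thus seen in each replicate.

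The replicates differed in how many coding-exon candidates they held. Replicate 2 had 2290 (7.63% of its list) and replicate 4 had 4794 (16.0%). Median GC content over the whole list was 44.3% in replicate 2 and 47.8% in replicate 4, and its part in the difference was not tested. Within coding exons GC content was nearly equal, at 54.7 and 55.2%. When coding-exon candidates of both own lists were matched within 100 bp, 440 were shared. They were 19.2% of those of replicate 2 and 9.18% of those of replicate 4. With a match to any summit of the other list these shares were 21.2 and 10.01%, against 30.6% over each whole list. The hosts of the own lists overlapped more, since 1034 genes were hosts in both. They were 62.6% of the 1653 hosts of replicate 2 and 29.4% of the 3522 of replicate 4. Protein-coding genes with eligible coding sequence numbered 12397, and the overlap that these numbers alone would give was not computed.

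Of the 3600 pooled members, 981 (27.25%) had a summit of replicate 2's list within 100 bp and 2176 (60.4%) one of replicate 4's. For all pooled candidates these shares were 51.5% and 62.2%, and for intron candidates 53.1% and 60.6%. Both lists held 476 members (13.2%), against 31.0% of all pooled candidates. A further 505 were in replicate 2 alone, 1700 in replicate 4 alone and 919 (25.5%) in neither. The median pooled rank was 10759.5 for those in both, 20464 and 19992.5 for those in 1 list, and 24297 for those in neither. All 12 peaks were in both, but peaks were selected by a threshold on reproducibility, so this is no separate result.

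The lower share in replicate 2 was also seen at matched ranks. Among the 87 members in the 5000 strongest, 79.3% were in replicate 2's list and 90.8% in replicate 4's, beside 88.6 and 90.1% of intron candidates of that rank. Among members ranked from 10000 to 20000 the shares were 30.6 and 70.0%, beside 49.9 and 59.99% of intron candidates. At a matched rank, coding-exon candidates were therefore less often in replicate 2 and about as often or more often in replicate 4. In members found in both lists the replicates' ranks had a Spearman correlation of 0.30 (n = 476 regions), beside 0.46 in introns (n = 3717) and 0.50 between genes (n = 1274). These are descriptions across regions that share libraries and a control.

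**Figure D3:**
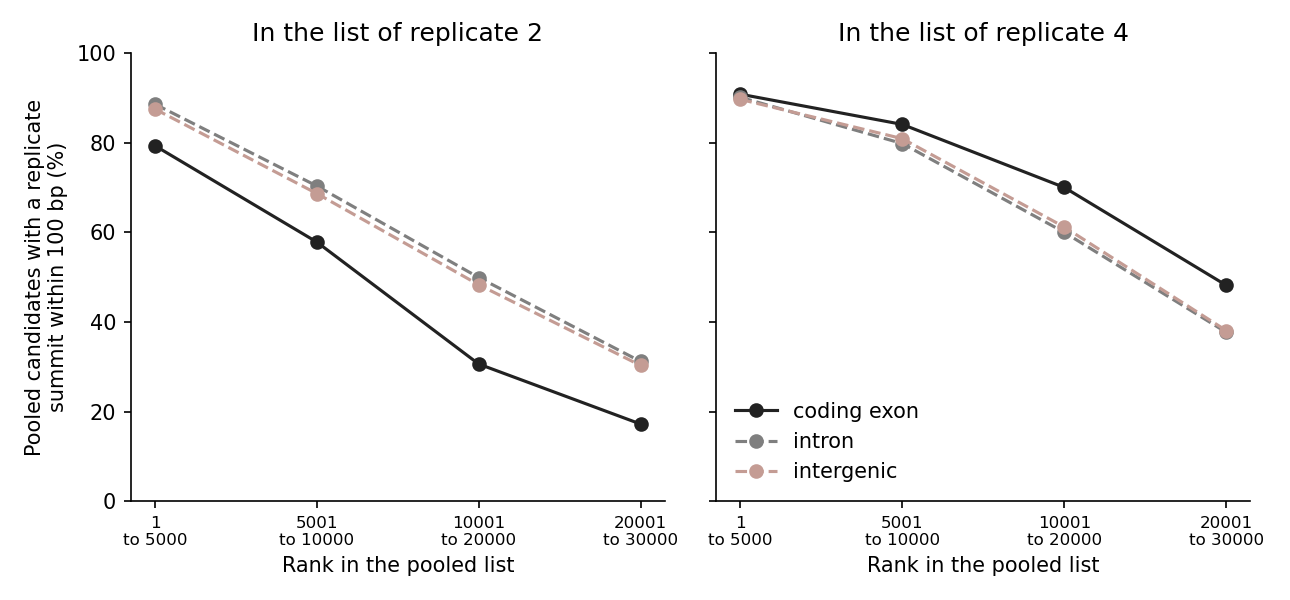
Percentage of pooled candidates with a summit within 100 bp in the list of replicate 2 (left) or replicate 4 (right), by bin of pooled rank, for coding exons (solid), introns and intergenic regions (dashed). Coding exons lay below both other classes in all 4 bins for replicate 2, and above both in all 4 bins for replicate 4.

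GC content was 55.2% at the median in the windows of the members (quartiles 51.2 and 59.2%), 44.8% in those of introns and 52.7% in the eligible coding sequence as a whole. The number of candidates per Mb of coding sequence rose in each step of GC content, from 69.3 below 45% to 369 at 65% or more. Within the members, the rank number and GC content had a Spearman correlation of −0.04 (n = 3600 regions). Presence in replicate 4's list went from 54.4% of members below 45% GC to 64.3% at 55 to 60% and 62.6% above, and presence in replicate 2's list stayed between 25.5 and 28.5%.

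**Figure D4:**
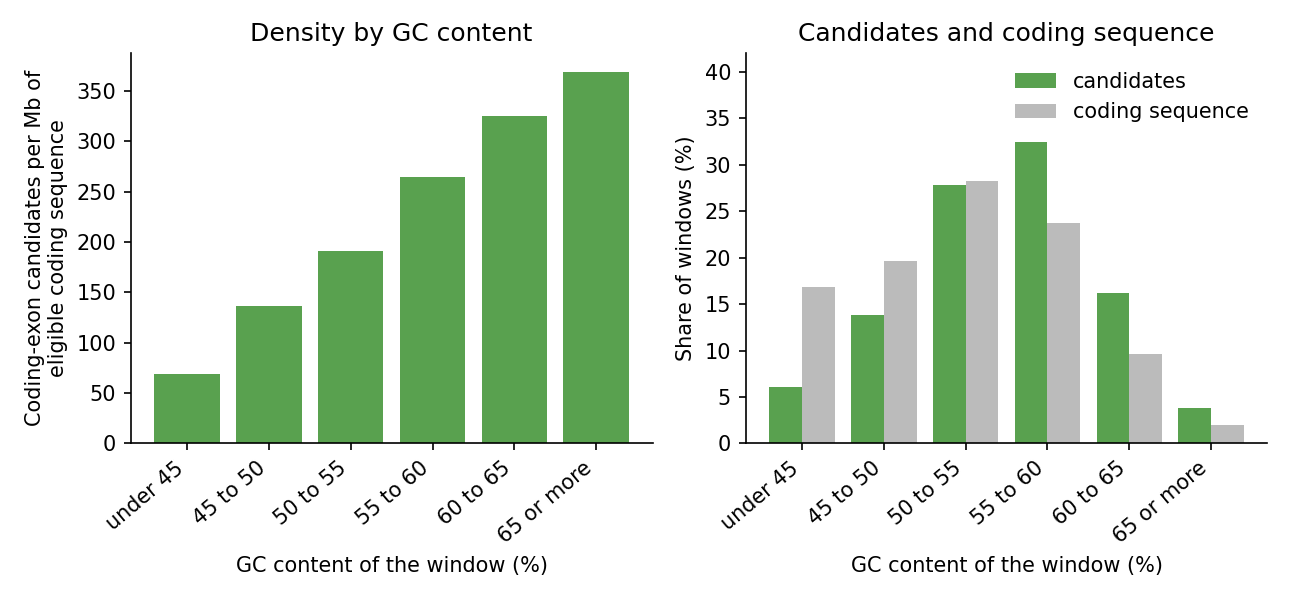
Left, coding-exon candidates per Mb of eligible coding sequence in 6 bins of GC content (100 bp on each side of the summit or of the sampled base). Right, the distribution of candidates (green) and of coding sequence (grey) over the same bins. Density rose from 69.3 to 369 per Mb, and candidates outnumbered their share of coding sequence in the 3 richest bins.

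Eligible coding sequence came to 18.6 Mb and held 193 candidates per Mb, beside 226 in introns and 130 between genes over 500 bp from every TSS, and 465 within that distance. Along the coding sequence, density was 359 per Mb in the first 10% and 145 in the last 10%. Along the gene it was 624 and 164. The first 10% of the gene held 0.271 Mb of eligible coding sequence and the last 10% held 2.24 Mb, since sequence near a TSS is left out. Short genes thus add little to the first steps, and the steps compare different sets of genes. A fall within single genes was not measured. The median summit lay at 60.8% of the gene and 49.2% of the coding sequence, while the medians of eligible coding sequence were 65.5 and 55.8%. Density was 261 per Mb up to 750 bp from the nearest TSS and 122 beyond 5000 bp, and the median distance was 1431 bp. The first coding exon of genes with several held 17.6% of the members and 9.57% of eligible coding sequence, and internal ones 45.25 and 56.8%. The 87 members in the 5000 strongest were farther toward the 5' end, with medians of 35.9% of the gene and 26.2% of the coding sequence, and 36.8% of them lay in the first of several coding exons.

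**Figure D5:**
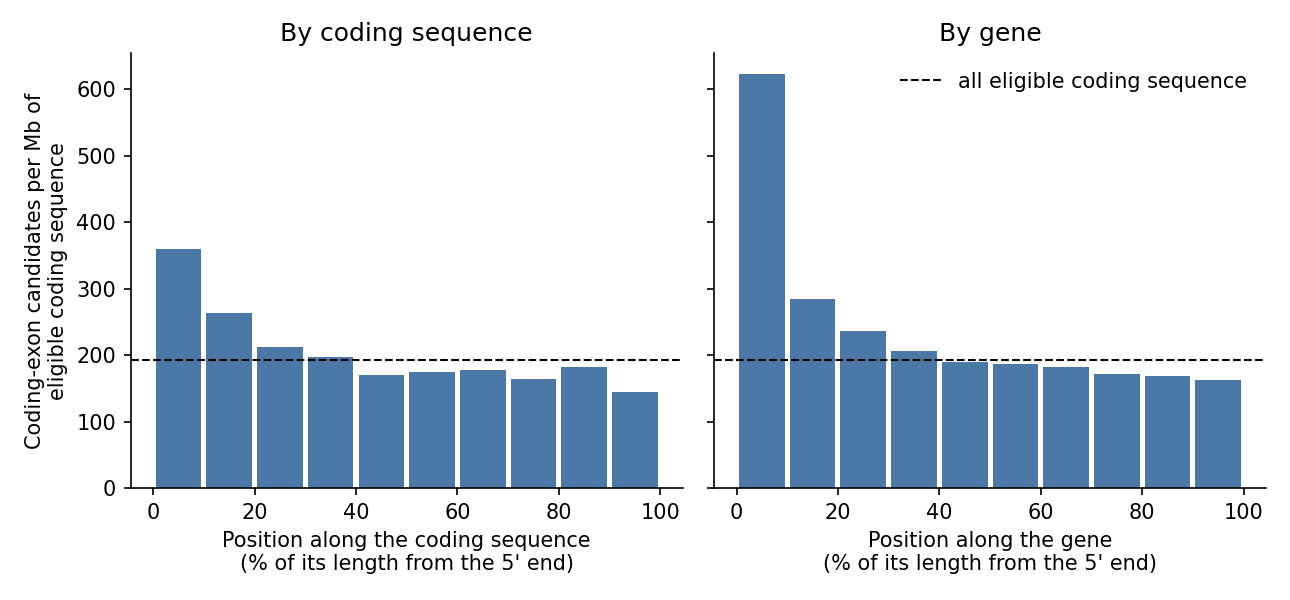
Coding-exon candidates per Mb of eligible coding sequence, in steps of 10% of the length of the coding sequence (left) and of the gene (right) from the 5' end. The dashed line is the value over all eligible coding sequence, 193 per Mb. Density fell from 359 to 145 along the coding sequence and from 624 to 164 along the gene, with most of the fall in the first 30%. Along the gene the first step holds 0.271 Mb of eligible sequence and the last 2.24 Mb, from different sets of genes.

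Exon structure set the candidates apart less. The exon holding the summit had a median length of 1000 bp, beside 963 bp for coding sequence in general. Density was lowest in exons of up to 200 bp (140 per Mb) and over 5000 bp (131), and highest in those of 1000 to 2000 bp (229). Summits within 100 bp of a coding segment's edge made up 31.5% of the members and 36.7% of coding sequence. Coding sequence used by every coding transcript that spans it held 90.5% of both. For 204 members the summit was also in a UTR of another transcript, and 4 members lay in coding sequence of more than 1 gene. Another member was within 500 bp of 295 members, so that some regions overlap. Members that were not peaks lay within 1000 bp of a peak in 124 cases (3.46%), beside 4.73% of intron candidates.

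By chromosome arm the density was 192 per Mb on 2L, 200.9 on 2R, 214 on 3L, 193 on 3R, 130 on 4 and 171 on X. Chromosome 4 held 33 members and no peak, and X held 569 and no peak. Peaks were 0.333% of all members, so their absence is not known to be a trait of these 2 chromosomes. In the own lists X had 125 per Mb in replicate 2 and 203 in replicate 4, and 4 had 130 and 122. The autosome arms other than 4 had between 117 and 126 in replicate 2 and between 267 and 275 in replicate 4. X and 4 thus lay below the other arms in replicate 4, while in replicate 2 they did not.

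The 2652 host genes were 21.4% of the 12397 protein-coding genes with eligible coding sequence. A single candidate was found in 2030 of them, 2 in 438 and 3 or more in 184. Hosts had more room, with a median of 1649.5 bp of eligible coding sequence beside 855 bp in the other genes. A peak at the gene's own TSS was found for 425 hosts (16.0%) and for 556 of the other 9745 genes (5.71%). Genes with such a peak held 349 candidates per Mb of eligible coding sequence and the rest 174, so the difference remained per Mb.

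lola, which encodes a family of BTB zinc finger regulators through many alternative last exons, held 17 coding-exon candidates, more than any other gene. Their ranks ran from 2435 to 25921. Of the 17, 10 were in replicate 2's list and 8 in replicate 4's, and the own lists held 18 and 17 in lola. In 14 of the 17, at least 1 lola transcript that spans the summit has no coding sequence there. Coding sequence of lola comes to 14600 bp over all transcripts, and to 2673 bp in the transcript of the best-ranked candidate. The share of it that differs between isoforms was not computed, so the 14 are not a trait of the candidates. Cda5, which encodes a chitin deacetylase, held 10 (best rank 7550), and Svil, a homologue of the actin-binding protein supervillin, 9. spen, an RNA-binding regulator of transcription, held 8, and pyd (a junction scaffold), bun (a TSC-22 family factor) and CG43736 held 7 each. bif, grh, Toll-7, btsz, N, shg, tou, Toll-6, robo1 and SNF4Agamma held 6 each. grh encodes the epithelial factor Grainyhead, N the receptor Notch, and shg the E-cadherin. None of these genes except lola and bif had a coding-exon candidate above rank 5000, and none had a coding-exon peak. Of all 3600 members only 87 were above that rank and 12 were peaks, so this is not known to be a trait of these genes.

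ash1 itself held 4 coding-exon candidates, all in its large second coding exon of 4743 bp, and no other candidate lay within the gene. Their ranks were 6612, 19632, 21025 and 24308. None had a partner in replicate 2's list and 3 had one in replicate 4's, beside 27.25 and 60.4% of all members. With 4 regions, no departure from these shares can be told. The own lists held 0 and 5 coding-exon candidates in ash1, of 2290 and 4794 in all.

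Host counts and densities of the gene lists are to be read beside 21.4% hosts and 193 candidates per Mb over all eligible genes. The Hox genes, which set segment identity along the body, were hosts in 7 of 8 cases, with 15 candidates at 1181 per Mb. Antp was the exception, named here after its values were seen. abd-A held 4, with ranks from 1021 to 15545, and Ubx 2, the better at rank 3246 (2084 in replicate 2 and 5049 in replicate 4). Abd-B had its best candidate at rank 11288 and Dfd at 19460. Of the 15, 6 were in replicate 2's list, 10 in replicate 4's and 4 in both. Over all 3600 members these shares were 27.25, 60.4 and 13.2%.

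Several lists of developmental regulators had densities above the 193 per Mb of all eligible genes. Zinc finger regulators were hosts in 26 of 31 cases (60 candidates, 714 per Mb), led by tsh, lola, psq and Kr, and segmentation genes in 15 of 21 (22 candidates, 823 per Mb), led by gsb-n, slp2, Kr and inv. Enhancer of split and Notch bHLH genes were hosts in 7 of 15 (7 candidates, 901 per Mb), with da at rank 9578 as the best. Wnt, Hedgehog and Dpp pathway genes were hosts in 14 of 21 (25 candidates, 456 per Mb). ptc, the Hedgehog receptor, led them at rank 2912, with 1641 in replicate 2 and 9843 in replicate 4. Axon guidance and neural adhesion genes were hosts in 23 of 35 (50 candidates, 308 per Mb), led by the guidance cue NetA at rank 3984. Notch and EGF-repeat receptors and ligands were hosts in 7 of 14 (20 candidates), led by Egfr at rank 4907, and their 229 per Mb was near the value of all genes. The lists overlap, since Kr stands among both the zinc finger and the segmentation genes.

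Polycomb group genes were hosts in 10 of 24 (22 candidates, 319 per Mb), led by jing at rank 6100 and Pc at 7128. Trithorax group genes were hosts in 16 of 30 (40 candidates, 293 per Mb), led by tna at 5156 and ash1. Among enzymes of H3K36 and H3K79 methylation, ash1 and gpp were hosts, 2 of 7, and the 162 per Mb was below the value of all genes. None of these 3 lists held a peak in a coding exon. Peaks were 0.333% of all members, so with 22, 40 and 5 candidates this is not known to be a trait of the lists. The lists were drawn up with earlier results of these data known, as were all lists here, and overlap in ash1.

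Of the 5 housekeeping lists, 4 had densities between 325 and 593 per Mb, on few candidates, and lists of developmental regulators lay above, within and below that range. Glycolysis genes were hosts in 6 of 12 (8 candidates, 593 per Mb), led by Hex-A at rank 9229. Actin, tubulin and histone variant genes were hosts in 5 of 17 (7 candidates, 466 per Mb), led by alphaTub84B at rank 4995. Translation factors were hosts in 5 of 15 (8 candidates, 325 per Mb), led by eEF2 at rank 4553. Ribosomal protein genes were hosts in 3 of 18 (3 candidates, 441 per Mb) and heat shock and chaperone genes in 3 of 14 (3 candidates, 168 per Mb). Of the 29 candidates of these 5 lists, 22 were in replicate 4's list and 6 in replicate 2's, beside 60.4 and 27.25% of all members.

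Density fell with the length of eligible coding sequence in general, from 227 per Mb in genes with 1000 to 2000 bp of it to 113 in those with over 5000 bp. Lists of structural proteins, many of them long, also had low densities, and the part of length in this was not tested. Giant muscle and cytoskeletal proteins had 12 candidates over 236 kb of eligible coding sequence (50.8 per Mb), led by zip, the nonmuscle myosin heavy chain, at rank 5171. Extracellular matrix genes had 14 over 156 kb (89.9 per Mb), of which 12 were in replicate 4's list and 0 in replicate 2's. Cadherins had 11 (97.3 per Mb), with 6 of them in shg. In the same order of replicates, the counts were 6 and 2 for the giant muscle and cytoskeletal list and 6 and 3 for cadherins. Over all members the shares were 60.4 and 27.25%. Mucins had 2 over 116 kb (17.3 per Mb), in Sgs3 and Muc30E. Yolk and chorion genes had 1, in Cp38, and chemoreceptors 1, in Ir25a. The 20 eligible cuticle protein genes and the 13 genes of the transposon and piRNA pathway had none. Over 12.4 and 28.7 kb of eligible coding sequence, a count of 0 allows densities of up to 241 and 105 per Mb, by counting error alone.

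The peak nearest to the 500 bp limit was that of l(3)mbn, at 574 bp. The members nearest to the limit, in tou, CG6149, IscU, CG4951 and Prx2, were 501 or 502 bp from a TSS at ranks from 8140 to 27461. The coding summits just short of it, in CG14285, CG13928, PolG1, CG16762 and CG2533, were 499 or 500 bp away at ranks from 19848 to 29425. Coding summits nearer to a TSS, which are not members, included 5 peaks, in cher, SamDC, Eno, CG32195 and SmD3, between 29 and 458 bp from a TSS.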

How the data were processed

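The labels describe 2 ChIP-seq samples of 1 group. The authors deposited 4 region lists in dm6: 30000 candidates from each replicate, 30000 from both pooled, and those that passed an IDR threshold. For the aligner, the peak caller and the value of that threshold, the sources used here name nothing. The deposited signal score (column 7) was used for ranks within a list. The deposited −log10 q-value was at its highest value, 3.85, in 3537 pooled candidates and served only for the count below a q-value of 0.05. The deposited summit offset, in bp from the region's start, gave the summit. Printed coordinates are 1-based.

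Summits were assigned to coding sequence (CDS) of Ensembl release 115, with transposable elements left out. The host was the gene with the longest CDS there. Eligible coding sequence, sampled every 100 bp, is all CDS over 500 bp from every TSS. A candidate was present in a replicate's list when a summit lay within 100 bp. A gene had a TSS peak when a peak summit lay within 500 bp of any of its TSSs. Eligible genes have some eligible coding sequence. Of the list symbols 7 matched by a synonym, and dlk matched none. Shares have Clopper-Pearson 95% intervals. Python 3.11.15, pandas 2.3.3, numpy 2.4.6, scipy 1.17.1 and matplotlib 3.10.9 were used, and the assignment was tested on simulated summits. With 1 group and 2 replicates no test over samples was possible.

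Named are the hosts of all coding-exon peaks, of the 20 strongest members, of the 10 strongest of each replicate and of most candidates (10 genes and ties), up to 4 per gene list, ash1, and 5 on each side of a limit. The named genes are a selection of these, and tou, N, shg, btsz, Toll-6, robo1 and SNF4Agamma came in as ties. The members and lists were chosen with earlier results of these data known.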

Additional observations from a re-analysis of the deposited data

How the results depend on the processing

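The 7 kinds of result were recomputed under 14 alternatives, which gave 91 values. Of these, 64 stayed within 1.5 times (counts), the SD between the replicates' own lists (medians and shares of peaks or hosts) or the 95% interval (presence). The other 27 are given here, and the cause was not tested for any. With 1 replicate left out, the other's own list took the place of the pooled one. The number of members then ran from 2290 to 4794, the share among the strongest from 0.334 to 0.611%, the median rank from 19263.5 to 20747.5, the median gene position from 60.04 to 63.3%, GC content from 54.7 to 55.2%, host genes from 1653 to 3522 and hosts with several candidates from 23.8 to 24.6%. Presence in the list left out was 10.01% (replicate 2) and 21.2% (replicate 4), and presence in both gives no value there. The stronger 50% of the IDR list held 6 members. For summits within 50 bp, within 250 bp, or any overlap of regions, presence was 17.4, 38.0 and 40.9% in replicate 2, 42.03, 72.3 and 73.0% in replicate 4, and 5.89, 24.9 and 27.75% in both. The median gene position was 57.1% with a TSS limit of 250 bp, 67.3% with 1000 bp, and 49.2% along the coding sequence. GC content over the whole region was 54.5%. Hosts with several candidates were 24.5% with the 1000 bp limit, 21.6% for coding sequence used by every spanning transcript, 22.9% without summits in a UTR, and 15.0% with regions under 1000 bp apart merged.

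No paired analysis was possible because there is 1 group. Read depth is unknown, so no value here allows for read sampling, and the shared control limits what agreement of the replicates shows. Which regions of a list are background is known only through the IDR threshold.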
